A study of Mus musculus with 6 samples.

Results

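Striated muscle is built from sarcomeres, and the transcripts described here are the 39 genes that encode their proteins or the calcium and energy supply around them, read in bulk RNA sequencing of dorsal root ganglia (DRGs). The genes were taken by name, and all 39 were found among the 47937 loci of the count table. They comprise 7 myosin heavy chains, 5 myosin light chain genes (one of them a light chain kinase), 3 thick filament and titin genes, 3 thin filament genes, 8 troponins, 5 Z-disc genes, 4 genes of the calcium store and 4 genes of energy supply. By the fibre or organ in which each is best known, 13 were classed as fast, 9 as slow, 4 as cardiac, 2 as developmental and 11 as shared between fibre types.

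The study asked how the transcription factor Tlx3 shapes the sensory neurons of the DRG. The mutant mice (Tlx3cko; Tlx3f/f;SNS-cre in the labels) carried floxed Tlx3 alleles and Cre driven by the sodium channel Nav1.8, which is active in nociceptive neurons and is not known as a driver in muscle. Both groups were C57BL/6 mice of about 2 months, and the comparison animals, called controls by the study, carry a wild type genotype in the labels. There were 3 libraries of total RNA for each genotype (control replicates 1 to 3 and Tlx3cko replicates 1 to 3), prepared from cervical, thoracic and lumbar DRGs, and no source used here says whether animals were pooled or which replicates were collected together.

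Library totals ranged from 11458299 to 18775628 counts. Sensory neuron markers were abundant in every library, with 39065 to 59974 counts of the neuronal tubulin Tubb3 and 69657 to 100979 counts of the neurofilament Nefl. The deleted gene, Tlx3, fell by 0.46 on the log2 scale (standard error, SE, 0.09; adjusted p = 0.0122, edgeR), with whole-tissue counts of 1052 to 1717 remaining in Tlx3cko libraries. Xist was counted 591 and 493 times in control replicates 1 and 2 and at most 2 times in the other 4 libraries, and the Y-linked gene Ddx3y had 0 counts in those controls and 273 to 525 counts in the rest, so only control replicate 3 had the same pattern of sex-linked counts as the Tlx3cko libraries. Values below are normalized counts, meaning counts scaled to a common library size of 14970767, and replicates are given in the order 1, 2 and 3. edgeR's quasi-likelihood model was fitted to the 20006 genes that had 10 or more counts in all, and adjusted p-values are Benjamini-Hochberg values over all of them. Of the 39 members 36 entered the test, while Tnnt2, Tnni3 and Sln had too few counts.

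In a sarcomere, myosin thick filaments pull on actin thin filaments that are anchored at the Z-disc, and calcium released from the sarcoplasmic reticulum permits this by binding troponin. Muscle fibres differ in which paralogue they use: Myh4, Myh1 and Myh2 encode the IIb, IIx and IIa heavy chains of fast fibres, and Myh7 encodes the chain of slow fibres and of the ventricle. Mature sarcomere transcripts are known as products of differentiated muscle fibres and heart, and are not regarded as neuronal or glial products of the DRG.

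The Myh4, Myh1 and Myh2 genes lie side by side on the plus strand of chromosome 11, and their upstream regions are shown because the paralogues behaved differently between libraries. The 300 bases of each promoter below, from 250 bases before to 50 bases after the RefSeq start, are from RefSeq on GRCm38.p6 (Myh2 at chr11:67170777-67171076, Myh1 at chr11:67199852-67200151 and Myh4 at chr11:67237562-67237861). Capitals mark the longest run that all 3 sequences share, of 20 bases.
Myh2: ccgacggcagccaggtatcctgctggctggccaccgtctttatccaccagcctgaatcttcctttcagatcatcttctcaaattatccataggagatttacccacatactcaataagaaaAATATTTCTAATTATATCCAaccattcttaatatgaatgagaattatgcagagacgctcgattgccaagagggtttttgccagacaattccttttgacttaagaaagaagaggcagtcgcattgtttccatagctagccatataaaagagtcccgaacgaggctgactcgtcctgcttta
Myh1: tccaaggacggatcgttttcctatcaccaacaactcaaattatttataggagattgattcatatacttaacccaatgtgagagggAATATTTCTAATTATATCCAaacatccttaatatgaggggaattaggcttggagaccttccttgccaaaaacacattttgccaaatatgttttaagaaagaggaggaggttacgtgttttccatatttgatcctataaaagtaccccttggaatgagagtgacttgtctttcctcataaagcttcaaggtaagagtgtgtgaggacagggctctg
Myh4: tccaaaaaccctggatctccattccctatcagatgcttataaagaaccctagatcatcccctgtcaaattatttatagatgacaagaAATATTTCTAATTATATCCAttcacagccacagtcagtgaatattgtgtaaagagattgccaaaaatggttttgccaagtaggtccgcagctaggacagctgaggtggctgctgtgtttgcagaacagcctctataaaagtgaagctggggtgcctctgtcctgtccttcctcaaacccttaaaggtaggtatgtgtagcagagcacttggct
The shared run began 130 bases before the start of Myh2, 165 before that of Myh1 and 163 before that of Myh4, and 0.00913% of the 32851 promoters of this length in the RefSeq set held it, namely these 3. The E-box CANNTG, the letters read by myogenic factors such as MyoD among many other proteins, occurred 3 times in the Myh4 window, once as CAGCTG, and 0 times in those of Myh1 and Myh2. A CArG box, the motif of serum response factor, was matched 1 time in the Myh4 window and 0 times in the other two. Promoters were available for 31 members (37 promoters). The letters CANNTG, which match on both strands at once and include every CAGCTG, were in 94.6% of them and in 72.3% of all promoters. CAGCTG alone was in 48.6% against 16.3%, TATAAA on either strand in 29.7% against 13.6%, the MEF2 motif in 5.41% against 0.557% and the CArG box in 10.8% against 1.63%. These are matches of letters only, and the count data do not show which factor was bound.

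Muscle transcripts were present in every library but in very unequal amounts. Summed over the 39 members, the normalized counts were 5012.5, 1614.7 and 583.1 in control libraries and 5614.8, 4838.1 and 3756.5 in Tlx3cko libraries. Control replicate 1 was therefore among the Tlx3cko libraries, and control replicates 2 and 3 were below all of them. Since this is bulk RNA, fewer cells with these transcripts and less of the transcripts per cell cannot be told apart. Which cells held them was not tested.

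**Figure D1:**
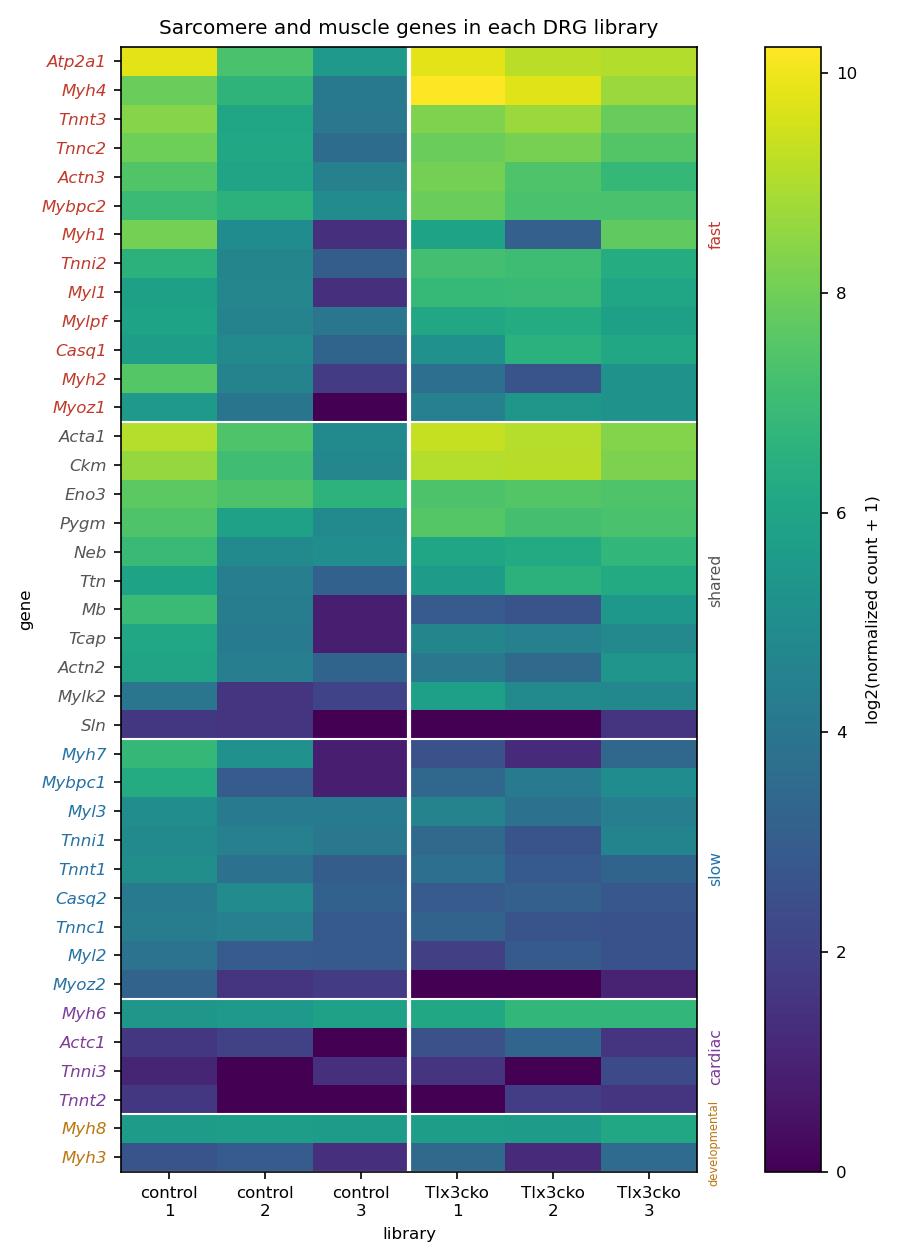
Heat map of log2(normalized count + 1) for the 39 members (vertical axis, grouped by fibre class and sorted by mean level) in the 6 libraries (horizontal axis). The fast genes, and the shared genes other than Sln, are darker in control replicate 3 than in control replicate 1 and in all 3 Tlx3cko libraries. Some of them, such as Myh1, Myh2, Mb and Actn2, are darker in all 3 Tlx3cko libraries than in control replicate 1. Myh4 is brightest in Tlx3cko replicate 1, at 1209 normalized counts.

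Between the genotypes, 3 of the 36 tested members were higher in Tlx3cko DRGs past the threshold (adjusted p under 0.05, edgeR), where 1.69% of all tested genes were, and 0 were lower, where 2.56% of all tested genes were. The 3 were the IIb heavy chain Myh4, the skeletal myosin light chain kinase Mylk2 and the cardiac alpha heavy chain Myh6. At an unadjusted p under 0.05 there were 15 of the 36 members, of which 3 were slow genes with negative fold changes, where 14.5% of all tested genes were, and DESeq2 and limma-voom also called 0 members lower. The median log2 fold change of the tested members was 0.77, and that of all tested genes was -0.004. In 5 members (Myh4, Myh6, Myl1, Mylk2 and Mybpc2) the 3 Tlx3cko values were all above the 3 control values, as in 8.87% of all tested genes, and in 2 members (Casq2 and Myoz2) they were all below, as in 10.8% of all tested genes. With 3 libraries against 3, the smallest p that an exact two-sided permutation test of 1 gene can reach is 0.1. The p-values measure the spread between these libraries only.

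Among the heavy chains, the motor proteins of the thick filament, Myh4 had the lowest adjusted p. Myh4 had 235, 99.7 and 16.8 normalized counts in control libraries and 1209, 859 and 416 in Tlx3cko libraries. The lowest Tlx3cko library thus lay above the highest control. The mean rose from 117 ± 110 to 828 ± 397 (SD, n = 3 each), with a log2 fold change of 2.87 (SE 0.56, adjusted p = 0.0101, edgeR). The call was lost without control replicate 2 (2.79, adjusted p = 0.0611) and with DESeq2 (2.83, adjusted p = 0.0639).

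The neighbouring IIx gene Myh1 had 272, 30.9 and 1.60 normalized counts in controls and 59.7, 7.87 and 211 in Tlx3cko libraries. The highest value was in a control and the ranges overlapped throughout, and the log2 fold change was -0.07 (SE 1.02, adjusted p = 0.986). The IIa gene Myh2 had 186, 22.9 and 2.39 normalized counts in controls and 12.5, 5.25 and 37.4 in Tlx3cko libraries. Myh2 was thus highest in control replicate 1 by a wide margin, and its log2 fold change was -1.86 (SE 0.99) and missed the threshold (adjusted p = 0.441). For the slow chain Myh7 the normalized counts were 112, 34.9 and 0.80 in controls and 4.81, 1.31 and 9.84 in Tlx3cko libraries. All Tlx3cko values of Myh7 were below those of control replicates 1 and 2 but above that of control replicate 3. Its log2 fold change of -3.09 (SE 1.04, adjusted p = 0.142, edgeR) passed the threshold without control replicate 3 (adjusted p = 0.00788). Control replicate 3 had the lowest Myh7 value of all libraries. Leaving it out therefore favours that call by construction, and the call is not separate support for a difference. Myh7 also passed without a filter on low counts (adjusted p = 2.19e-08), where the SE was 0.49 on the same libraries. That smaller SE does not reflect the spread within the controls, from 0.80 to 112.

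The cardiac alpha chain Myh6 had a different library pattern. It had 42.1, 43.9 and 56.6 normalized counts in controls and 69.3, 110 and 109 in Tlx3cko libraries, and control replicate 1 was its lowest library. The rise from 47.5 ± 7.93 to 96.3 ± 23.4 (SD, n = 3 each) corresponds to a log2 fold change of 1.0 (SE 0.26, adjusted p = 0.0457). This call held in 1 of the 6 fits with 1 library removed, the one without Tlx3cko replicate 1 (adjusted p = 0.0203), and the other adjusted p-values were 0.0636 to 0.184. Transcripts of Myh6 and Myh7 share a stretch of 465 bases at 98% identity or more, so some of their reads could have been assigned to either gene. The perinatal chain Myh8 was almost level, with 49.7, 50.9 and 50.3 normalized counts in controls and 52.9, 48.6 and 66.9 in Tlx3cko libraries, and the embryonic chain Myh3 had 1 to 11 counts in each library.

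The mix of the 4 adult skeletal chains also differed between libraries. Myh4 made up 29.2% of the Myh1, Myh2, Myh4 and Myh7 counts in control replicate 1 (95% Wilson interval 26.1 to 32.6, 746 counts), 52.9% in control replicate 2 (45.8 to 59.9, 189 counts) and 77.8% in control replicate 3 (59.2 to 89.4, 27 counts). In Tlx3cko libraries the share was 94.0% (92.6 to 95.2, 1336 counts), 98.3% (97.1 to 99.1, 666 counts) and 61.7% (58.1 to 65.3, 685 counts). Tlx3cko replicate 3 was thus within the range of the controls, and the intervals cover counting error only. Myh1 accounted for 31.2% of the counts in Tlx3cko replicate 3 and 33.8% in control replicate 1, against 4.64% and 0.901% in Tlx3cko replicates 1 and 2. The slow chain Myh7 was 13.9% and 18.5% of the counts in control replicates 1 and 2, and 0.374%, 0.15% and 1.46% in the Tlx3cko libraries. Control replicate 3 held a single Myh7 count among its 27 (3.70%, interval 0.657 to 18.3), so its share could not be separated from those of the other libraries.

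**Figure D2:**
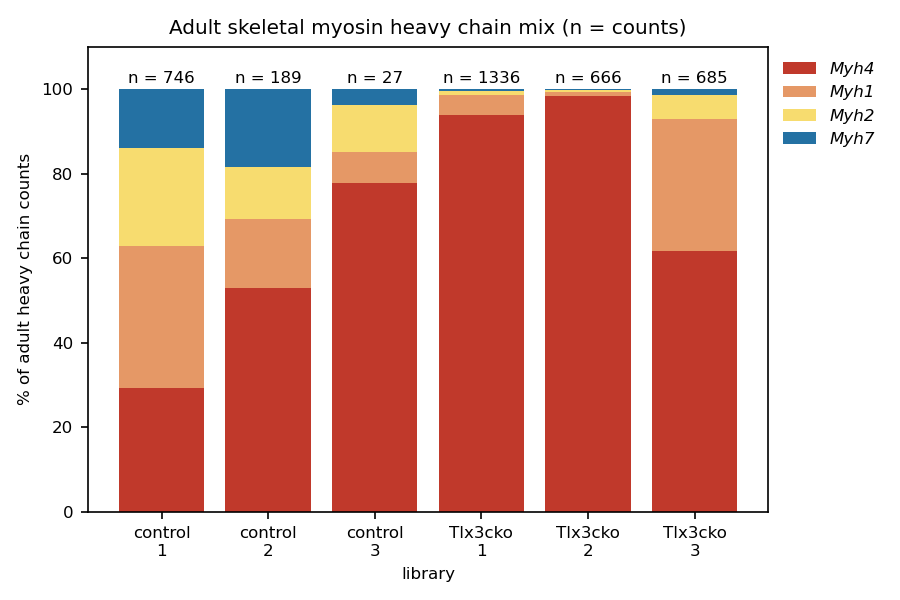
Stacked bars of the percentage of adult skeletal heavy chain counts taken by Myh4, Myh1, Myh2 and Myh7 in each library, with the number of counts above each bar. Myh4 takes 94.0% and 98.3% of the bar in Tlx3cko replicates 1 and 2, 61.7% in Tlx3cko replicate 3 and 29.2% in control replicate 1.

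The light chains bind the neck of the myosin head. The fast essential light chain Myl1 had 55.1, 25.9 and 1.60 normalized counts in controls and 115, 121 and 65.9 in Tlx3cko libraries. The groups did not overlap, but the log2 fold change of 1.92 (SE 0.61) missed the threshold (adjusted p = 0.12). A pseudogene, Mylf-ps, shares 421 bases of near-identical sequence with Myl1. The fast regulatory light chain Mylpf had 60.4, 22.9 and 15.2 normalized counts in controls and 69.3, 77.4 and 55.1 in Tlx3cko libraries, a log2 fold change of 1.06 (SE 0.42, adjusted p = 0.243). The kinase gene Mylk2, whose product phosphorylates the regulatory light chain in skeletal muscle, was counted 14, 2 and 4 times in controls and 56, 22 and 27 times in Tlx3cko libraries. All Tlx3cko values were above all control values, and Mylk2 rose by 2.47 on the log2 scale (SE 0.62, adjusted p = 0.0411, edgeR). The call rests on few counts and held in 1 of the 6 fits without 1 library (without control replicate 1, adjusted p = 0.00465), and in the others the adjusted p was 0.0639 to 0.181. The slow and ventricular light chains Myl2 and Myl3 had 3 to 13 and 10 to 29 counts in the libraries, with log2 fold changes of -0.92 and -0.21 and adjusted p-values of 0.648 and 0.896.

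Among the other thick filament genes, Mybpc2, the fast form of myosin-binding protein C, had 124, 94.7 and 29.5 normalized counts in controls and 241, 159 and 155 in Tlx3cko libraries. The lowest Tlx3cko library was above the highest control, yet the log2 fold change of 1.19 (SE 0.37) gave an adjusted p of 0.112. The slow form Mybpc1 had 78.8, 6.98 and 0.80 normalized counts in controls and 9.62, 17.1 and 30.5 in Tlx3cko libraries, which places control replicate 1 above and control replicates 2 and 3 below all Tlx3cko libraries. Its log2 fold change was -0.55 (SE 0.94, adjusted p = 0.873), and the sign turned with limma-voom (1.24). Ttn, encoding the giant spring protein titin, had 60.4, 19.9 and 7.98 normalized counts in controls and 48.1, 95.8 and 75.8 in Tlx3cko libraries, a log2 fold change of 1.34 (SE 0.52, adjusted p = 0.234).

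The thin filament gene Acta1, skeletal alpha actin, had 552, 172 and 28.7 normalized counts in controls and 643, 547 and 325 in Tlx3cko libraries. Control replicate 1 exceeded Tlx3cko replicate 3, and the spread within the controls, from 28.7 to 552, was wider than the difference of the means (251 ± 270 against 505 ± 163, SD, n = 3 each). The log2 fold change was 1.04 (SE 0.61, adjusted p = 0.499). Per kilobase of exon, Acta1 had the highest mean of the members in both groups, 163 normalized counts in controls and 329 in Tlx3cko DRGs, followed in both by the troponin gene Tnnc2 (138 and 292), and the order of these 2 was within the spread of the libraries. Neb, which encodes the thin filament ruler nebulin, had 122, 27.9 and 31.1 normalized counts in controls and 66.4, 76.1 and 110 in Tlx3cko libraries (log2 fold change 0.51, adjusted p = 0.711). The cardiac actin Actc1 had at most 3 counts in each control and 5, 7 and 2 in Tlx3cko libraries, too few for a fold to be given.

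The troponin complex carries the calcium signal to the thin filament, and its fast and slow genes took opposite signs. The fast genes Tnnt3, Tnni2 and Tnnc2 had positive log2 fold changes of 1.24, 1.53 and 1.12 (adjusted p = 0.42, 0.213 and 0.464), and the slow genes Tnnt1, Tnni1 and Tnnc1 had negative ones of -0.86, -0.67 and -1.27 (adjusted p = 0.617, 0.657 and 0.397). No troponin passed the threshold. Tnnt3, the tropomyosin-binding subunit, had 332, 65.8 and 16.0 normalized counts in controls and 309, 415 and 232 in Tlx3cko libraries. The inhibitory subunit Tnni2 had 95, 24.9 and 7.18 normalized counts in controls and 143, 133 and 79.7 in Tlx3cko libraries. In both genes control replicate 1 lay within the Tlx3cko range and control replicates 2 and 3 below it. The slow calcium-binding subunit Tnnc1, which the heart also uses, had 19.4, 20.9 and 6.38 normalized counts in controls and 8.66, 5.25 and 4.92 in Tlx3cko libraries. The cardiac genes Tnnt2 and Tnni3 were counted 0 to 4 times in each library.

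At the Z-disc, the fast alpha-actinin Actn3 had 176, 61.8 and 20.7 normalized counts in controls and 275, 169 and 112 in Tlx3cko libraries (log2 fold change 1.14, SE 0.53, adjusted p = 0.343). Actn2, the alpha-actinin of all fibres and of the heart, had 62.6, 19.9 and 8.77 against 16.4, 10.5 and 39.4 normalized counts (log2 fold change -0.41, adjusted p = 0.858). The 2 paralogues thus differed in their highest library, which was Tlx3cko replicate 1 for Actn3 and control replicate 1 for Actn2. Tcap, the cap protein of titin, had 70.2, 17.0 and 0.80 normalized counts in controls and 25, 21 and 27.6 in Tlx3cko libraries (log2 fold change -0.21, adjusted p = 0.946). Myoz1 and Myoz2 encode calcineurin-binding Z-disc proteins. Fast Myoz1 was counted 42, 15 and 0 times in controls and 22, 32 and 38 times in Tlx3cko libraries, with overlapping groups (log2 fold change 0.78, SE 0.80, adjusted p = 0.755). Slow Myoz2 was counted 8, 2 and 3 times against 0, 0 and 1. All Myoz2 values were lower in Tlx3cko libraries, at counts too low for a fold to be given.

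In the calcium store, Atp2a1, the calcium pump of fast fibres, had 913, 157 and 43.9 normalized counts in controls and 902, 572 and 527.5 in Tlx3cko libraries. Control replicate 1 was the highest of the 6 libraries, and the log2 fold change was 0.87 (SE 0.66, adjusted p = 0.638). The calcium-binding protein genes calsequestrin 1 and 2 went apart. Casq1, of fast fibres, had 51.8, 28.9 and 8.77 normalized counts in controls and 35.6, 93.2 and 68.9 in Tlx3cko libraries (log2 fold change 1.16, adjusted p = 0.30). Casq2, of slow fibres and heart, had 18.4, 29.9 and 7.98 against 6.74, 7.87 and 5.90, with all Tlx3cko values below all controls, a log2 fold change of -1.44 (SE 0.61) and an adjusted p of 0.284. The pump regulator Sln was counted at most 2 times in each library.

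Of the energy genes, Ckm, the muscle creatine kinase, had 387, 135 and 25.5 normalized counts in controls and 555, 556 and 294 in Tlx3cko libraries (log2 fold change 1.39, SE 0.57, adjusted p = 0.262). Pygm, the muscle glycogen phosphorylase, had 171, 56.9 and 27.9 against 185, 148 and 158 normalized counts (log2 fold change 0.97, adjusted p = 0.335). The oxygen store Mb, myoglobin, followed another pattern, with 124, 18.9 and 0.80 normalized counts in controls and 6.74, 5.25 and 43.3 in Tlx3cko libraries (log2 fold change -1.30, SE 1.02, adjusted p = 0.656). Eno3, the muscle enolase, varied least of the energy genes, at 98.1 to 204 normalized counts over the 6 libraries and a log2 fold change of 0.14 (SE 0.23, adjusted p = 0.861).

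By fibre class, 11 of the 13 fast genes had positive fold changes (median log2 1.14, 1 called higher), whereas 0 of the 9 slow genes did (median -0.92, 0 called; -0.89 over the 8 without Myoz2). Of the 10 tested shared genes 7 were positive (median 0.74, 1 called higher). The summed normalized counts of the fast genes were 2797, 719 and 175 in controls and 3633, 2933 and 2179 in Tlx3cko libraries. Those of the slow genes were 343, 153 and 65.4 in controls and 78.9, 63.0 and 109 in Tlx3cko libraries. Control replicate 1 was thus close to the Tlx3cko libraries in its fast transcripts and far above them in its slow ones. The median log2 ratio of the Tlx3cko mean to control replicate 1 was 0.08 over the fast genes and -1.56 over the slow genes, and the median log2 ratio of control replicate 1 to control replicate 3 was 4.34 and 1.53. The difference between the classes was not tested.

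**Figure D3:**
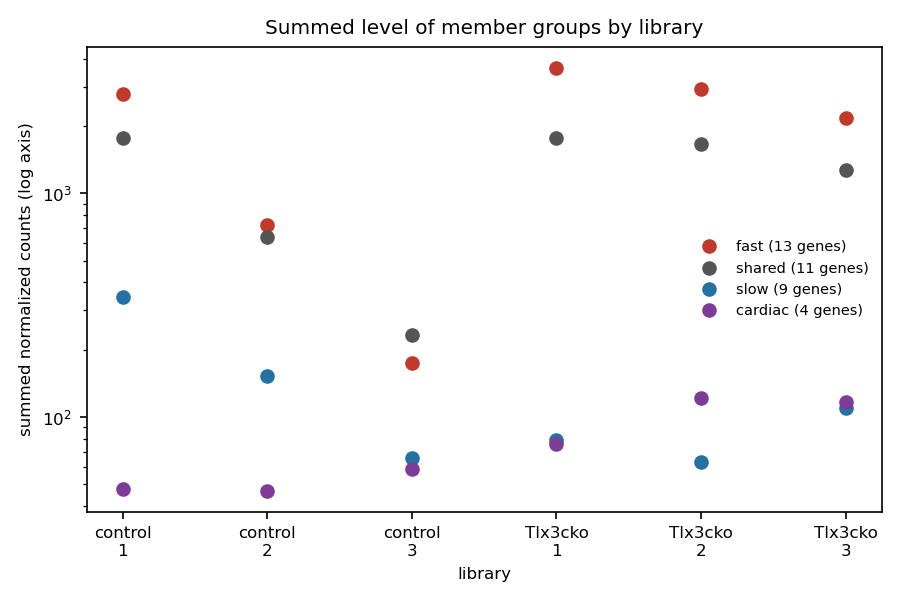
Summed normalized counts (vertical axis, logarithmic) of the fast, shared, slow and cardiac members in each of the 6 libraries (horizontal axis). The fast sum lies between 2179 and 3633 in Tlx3cko libraries and spreads from 175 to 2797 in controls, whereas the slow sum is highest in control replicate 1, at 343.

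The members also differed within the control group. Control replicate 1 was above control replicate 2 and that above control replicate 3 in 26 of the 36 tested members and in 13 of the 13 fast ones, where 16.7% of all tested genes had this order; the members share the same 6 libraries and are not separate replicates of it. Without control replicate 1, 15 members were higher in Tlx3cko past the threshold (9 fast, 6 shared, 0 slow, cardiac or developmental), where 2.08% of all genes tested in that fit were, and 2 of the 3 called in all 6 libraries (Myh4 and Mylk2) were among them. In that fit the log2 fold change of Acta1 was 2.37 (adjusted p = 0.0182, edgeR), of Ckm 2.59 (adjusted p = 0.00898), of Tnnt3 3.0 (adjusted p = 0.00155) and of Atp2a1 2.77 (adjusted p = 0.00156). Control replicate 1 had the highest summed level of the members among the controls. Leaving it out therefore raises such fold changes by construction, and these p-values are not separate support for a difference. Without control replicate 2 the number called higher was 0, without control replicate 3 it was 1, and without Tlx3cko replicate 1, 2 or 3 it was 2, 1 and 1. The shares of all genes called in those fits were not computed. Against control replicate 3 alone, the control whose sex-linked counts match the Tlx3cko libraries, the members' median log2 fold change was 2.90. Control replicate 3 had the lowest summed level of the members among the controls. Using it alone therefore also raises such fold changes by construction, and this median is not separate support for a difference. That fit has a single control, which is assumed to vary as the Tlx3cko libraries do. The part of sex in these results was not tested further.

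**Figure D4:**
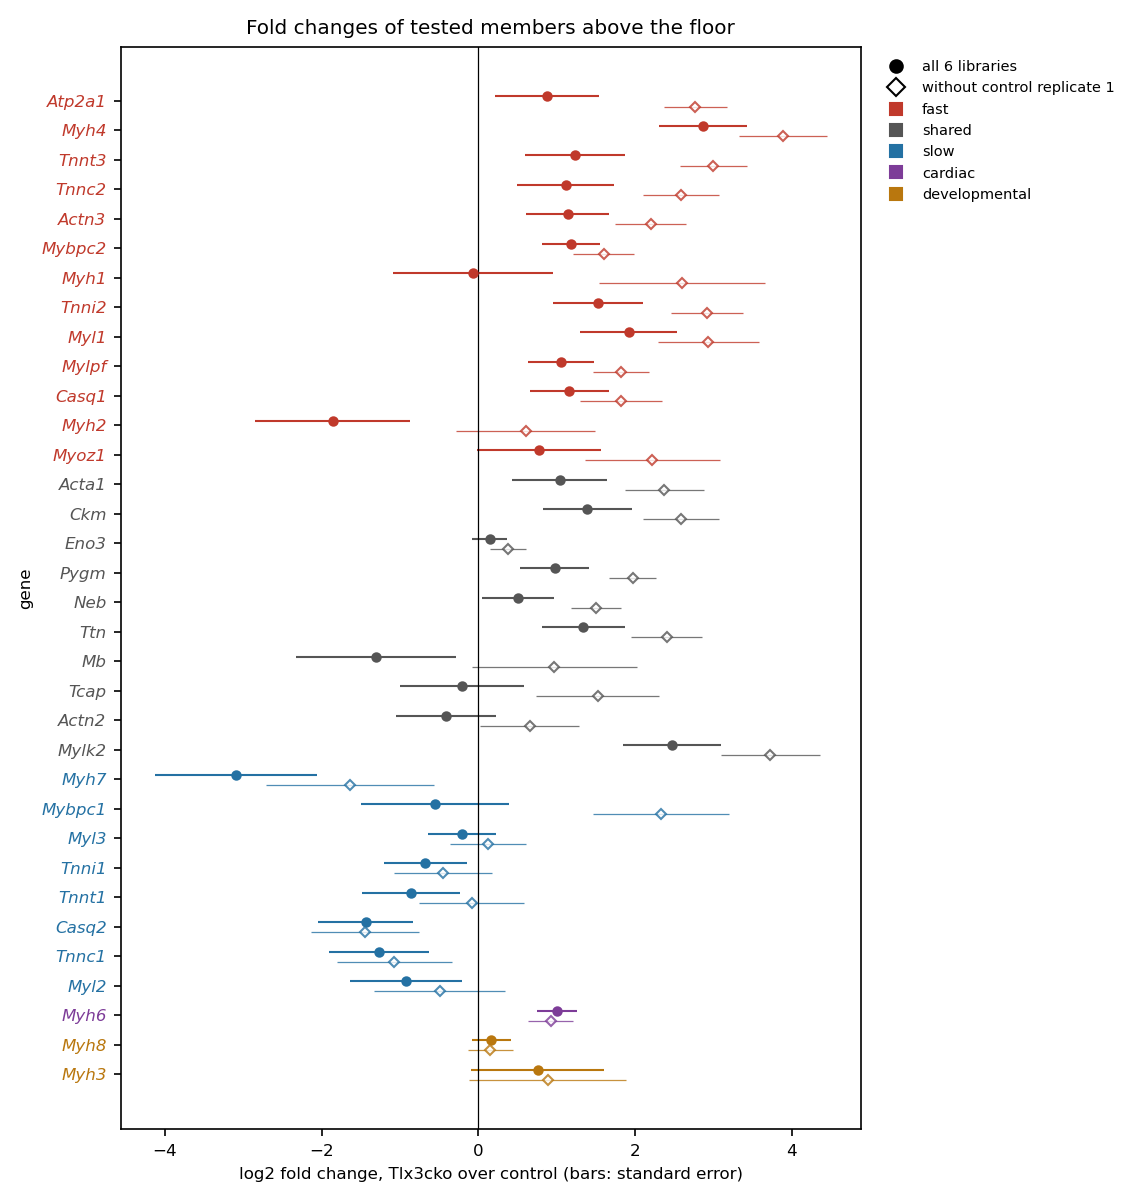
Log2 fold change of Tlx3cko over control (horizontal axis, bars are SEs) for the 34 tested members that were not at the floor of 3 counts per library in either group, with all 6 libraries (filled circles) and without control replicate 1 (open diamonds), coloured by fibre class. Leaving out that library moves most fast and shared genes to the right, with Acta1 going from 1.04 to 2.37, whereas Casq2 and Myh6 stay near their values.

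Several of the abundant transcripts kept similar proportions to one another. The count ratio of Ckm to Acta1 was between 0.703 and 1.02 in the 6 libraries, that of Tnnc2 to Acta1 between 0.374 and 0.555, that of Tnnt3 to Acta1 between 0.384 and 0.758 and that of Atp2a1 to Acta1 between 0.913 and 1.66. These ranges overlapped between the genotypes although Acta1 itself varied 22.4-fold. Myh4 did not keep such a proportion, at 0.427, 0.581 and 0.583 counts per Acta1 count in controls and 1.88, 1.57 and 1.28 in Tlx3cko libraries, so its groups did not overlap on this scale either. The groups of Myl1 per Acta1 count did not overlap (0.0998, 0.151 and 0.0556 in controls, 0.18, 0.221 and 0.203 in Tlx3cko libraries). Mb per Acta1 was 0.225, 0.110 and 0.0278 in controls and 0.0105, 0.00959 and 0.133 in Tlx3cko libraries, with Tlx3cko replicate 3 inside the control range.

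Some genes on the opposite strand followed the member that they overlap from library to library, and others did not. Exons of Ube2c, a ubiquitin-conjugating enzyme gene of dividing cells, cover 74.0% of the exon bases of Tnnc2, and Ube2c was counted 622, 170 and 39 times in controls and 628, 722 and 523 times in Tlx3cko libraries, each time more than Tnnc2 (232, 69 and 14 against 250, 213 and 183). The antisense gene A930016O22Rik, over 15.5% of Ckm, was counted 628, 187 and 73 times in controls and 823, 873 and 568 times in Tlx3cko libraries, again more than Ckm itself. Myhas, opposite Myh1, followed Myh1 rather than Myh4, with 166, 11 and 7 counts in controls and 53, 20 and 160 in Tlx3cko libraries. Likewise 9430073C21Rik, opposite Myh2, had 84, 13 and 1 counts in controls and 0, 1 and 20 in Tlx3cko libraries. Only Gm44646, opposite Mybpc2, passed the threshold among the overlapping genes tested (log2 fold change 1.71, SE 0.28, adjusted p = 0.00305), with 19, 24 and 23 against 64, 57 and 70 counts, and it did not share the spread of Mybpc2 within the controls. Among the others, the log2 fold change was 2.39 for Apol6 opposite Mb, 0.87 for Ccdc63 opposite Myl2 and 0.23 for Pth1r opposite Myl3, against negative values of those members, and none of the 3 passed the test (adjusted p = 0.222, 0.733 and 0.44). Whether the authors counted by strand is not given in the sources used here, so reads of a member and of its opposite gene cannot be told apart. Myh4, Acta1, Tnnt3 and Tnni2 have no gene overlapping their exons in the annotation.

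**Figure D5:**
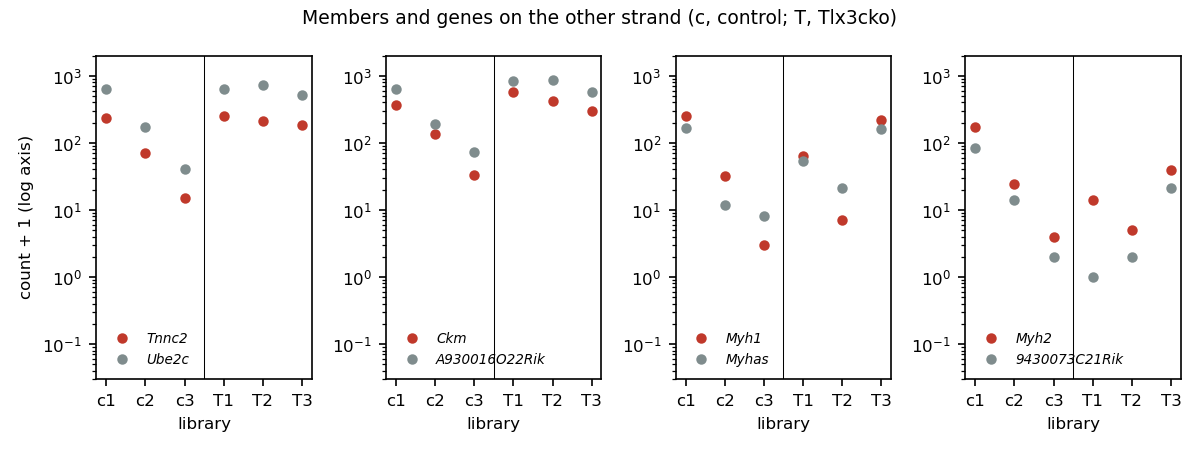
Counts plus 1 (vertical axis, logarithmic) in the 6 libraries (c1 to c3, control; T1 to T3, Tlx3cko) for 4 members (red) and the gene on the opposite strand (grey). Ube2c is above Tnnc2 in each library, and Myhas is high in the 2 libraries in which Myh1 is high, control replicate 1 (166 counts) and Tlx3cko replicate 3 (160 counts).

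A further list of 44 muscle genes outside the members, covering the excitation-contraction coupling complex, the M-band and muscle metabolism, was read in the same fit. Of its 42 tested genes 0 were higher and 0 lower past the threshold (edgeR), with 1 lower by DESeq2 and 0 by limma-voom. At an unadjusted p under 0.05 (edgeR) there were 2 (Jph1 and Tpm1, adjusted p = 0.069 and 0.0729), where 14.5% of all tested genes were. All Tlx3cko values were below all controls in 6 of the 42, Jph1 and Tpm1 among them, as in 10.8% of all tested genes. They were above all controls in 1, as in 8.87% of all tested genes. The median log2 fold change was 0.13, with 26 positive. Control replicate 1 was above 2 and that above 3 in 21 of the 42, and the median log2 ratio of control replicate 1 to control replicate 3 was 1.55. Its most abundant genes, Aldoa, Pfkm, Tpm1, Tpm3 and Gpd1, are also expressed outside muscle, and Aldoa had 29360 to 33737 normalized counts over the 6 libraries. The more muscle-restricted genes Des (desmin), Xirp2 and Cmya5, named here after their values were seen, had 105, 50.9 and 16.0, 31.3, 6.98 and 0, and 81.0, 17.0 and 13.6 normalized counts in control replicates 1, 2 and 3. In Tlx3cko libraries these genes were between 27.9 and 131 normalized counts, and none of the 3 passed the test (adjusted p = 0.484, 0.395 and 0.623). Other genes of the list did not have this order in the controls, such as Pgam2 (241, 290 and 220 normalized counts) and Klhl40 (1.08, 11.0 and 15.9), while Ldb3 was nearly level (274, 247 and 244). Between the genotypes, Des, Xirp2 and Cmya5 had positive log2 fold changes (0.81, 1.56 and 0.73). Those of Mypn, Xirp1, Nrap, Myot and Ryr1 were negative (-1.13, -0.84, -0.38, -0.36 and -0.09), and none of these passed the test.

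Markers of muscle precursors and of other tissues were read beside the members. The myogenic transcription factors Myod1, Myf5, Myf6 and Myog, which direct muscle differentiation, and Pax7 of satellite cells had 0 to 4 counts in every library, a level at which a difference was not detectable. Of the 14 myogenic and satellite cell genes 7 were tested and 0 called, and the sum of the list ranged from 849 to 1134 normalized counts, led by Megf10 and Mef2c, which other cells also express. The 10 smooth muscle genes, led by Smtn and Tagln, summed to 1057 to 1229 normalized counts in controls and 1236 to 1439 in Tlx3cko libraries with 0 called. The 12 tendon, cartilage and bone genes summed to 857, 677 and 620 in controls and 862, 971 and 964 in Tlx3cko libraries, and the cartilage matrix gene Comp was higher (log2 fold change 0.93, adjusted p = 0.00508, edgeR). Among the 9 tested genes of that list 5 had positive log2 fold changes, and Fmod had a negative one (-1.02, adjusted p = 0.52, edgeR). Adipocyte genes, led by Lipe and Plin4, had 0 called. Blood genes, led by Hba-a1 and Hbb-bs, were highest in control replicate 1 (3819 normalized counts, against 1474 to 2665 in the other 5 libraries), and the red cell anion exchanger Slc4a1 fell by 2.97 on the log2 scale (adjusted p = 0.00229). Of the endothelial genes, led by Vwf and Egfl7, Pecam1 was higher (log2 fold change 0.66, adjusted p = 0.0202). The summed levels of the Schwann cell list (27018 to 33290), the satellite glia list (Apoe and Sparc, 47334 to 61506) and the spinal cord list (12522 to 15216) varied by far less than those of the members. Egr2 in the first of these rose (log2 fold change 0.81, adjusted p = 0.0241), as did Nefl (0.23, adjusted p = 0.0386) and Nefh (0.36, adjusted p = 0.00532) among sensory neuron genes and Whrn (2.22, adjusted p = 2.6e-08) and Pvalb (0.59, adjusted p = 0.0116) among proprioceptor genes, a list led by Ntrk3 and Whrn. Sensory neuron genes went both ways, with 6 of 10 positive. Tlx3cko values were all above the controls in 4 (8.87% of all tested genes) and all below in 3 (10.8%). These 3 were Pou4f1, Avil and Prph (log2 fold changes -0.18, -0.12 and -0.12), and none passed the test. Positive values were also seen in 7 of 8 Schwann cell and 5 of 6 proprioceptor genes, the exceptions being Pmp22 (-0.31) and Etv1 (-0.36). The part of striated muscle tissue carried with the ganglia in the members' counts was not tested.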

How the data were processed

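DRG total RNA of control and Tlx3cko mice was sequenced by the authors as 3 paired-end libraries per genotype, and they deposited a table of raw read counts per gene without normalization. The submitters' processing notes name STAR 2.5.2a and the build mm10; the counting program and the use of strand are not given in the sources used here. The 208 loci outside the annotation (0.245% of counts) were treated as genes. Gene positions come from GENCODE M21 (GRCm38).

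Genes with at least 10 counts in total (20006) were scaled by TMM and tested with edgeR 4.0.16 (quasi-likelihood, R 4.3.3), with Benjamini-Hochberg adjustment over all genes and 0.05 as the threshold. Standard errors (SE) are the absolute log2 fold change divided by the square root of F. DESeq2 1.42.0, limma 3.58.1 (voom), other scalings and filters, a replicate block, control replicate 3 alone and each library left out were alternatives. Near-identical transcripts (98% over at least 100 bases) were found with blastn 2.17.0+. Levels per kilobase used merged exon lengths. Replicate libraries differed by more than sampling noise (chi-square per degree of freedom 4.32 to 10.1). The fitting script was tested on simulated data.

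The 39 members and the lists were chosen with earlier results of these data known. Named genes are all members, Tlx3, the 5 most abundant further muscle genes and any past the threshold, and from each marker list the 2 most abundant and up to 3 past the threshold; a few genes that this rule covers are not reported here. Of the 150 list entries 149 matched a symbol in the annotation; Ahsp was not used here. Promoter sequences and motif counts are from RefSeq (GRCm38.p6).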

Additional observations from a re-analysis of the deposited data

How the results depend on the processing

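The number of members called higher was 3 and became 2 with DESeq2, 5 with limma-voom and 16 without a filter on low counts. It was between 0 (without control replicate 2) and 15 (without control replicate 1) when 1 library was left out. Members called lower went from 0 to 3 without the filter and to between 0 and 1 with 1 library left out. Without the filter the SE fell from 0.61 to 0.14 for Acta1 and from 0.56 to 0.14 for Myh4, on the same libraries. For Myh6 it was 0.27 against 0.26. The share of all genes called higher is given here for the main fit and for the fit without control replicate 1. Counts of members in the other settings cannot be set against all genes. Of the further muscle genes 0 were called. Without the filter 2 were higher, and with 1 library left out 0 to 2 were. With DESeq2 1 was lower, without the filter 1, and with 1 library left out 0 to 1. The members' median log2 fold change (0.77) was between 0.25 and 1.81 with 1 library left out and 2.90 against control replicate 3 alone; that of the further genes (0.13) was between -0.07 and 0.51, and 1.03. The causes were not tested.

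Signs turned as follows. With limma-voom the log2 fold change was 1.44 for Myh1, 1.24 for Mybpc1, 1.44 for Tcap and 0.20 for Mb. Against control replicate 3 alone it was 5.78 for Myh1, 2.90 for Myh2, 2.61 for Myh7, 0.10 for Myl3, 4.38 for Mybpc1, 0.38 for Tnnt1, 1.34 for Actn2, 4.75 for Tcap and 4.36 for Mb. With 1 library left out the ranges were -1.49 to 2.60 for Myh1, -2.88 to 0.60 for Myh2, -0.39 to 0.12 for Myl3, -1.15 to 2.33 for Mybpc1, -1.13 to 0.66 for Actn2, -0.81 to 1.52 for Tcap, -0.11 to 0.38 for Eno3 and -2.93 to 0.97 for Mb. Myh4 stayed between 2.31 and 3.89.

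Samples with the same replicate number did not deviate together across genes as a whole (correlations -0.088, -0.022 and -0.107). With 3 libraries per genotype this cannot show whether libraries were collected together. The summed level of the members fell from replicate 1 to replicate 3 in both genotypes. With the replicate block 9 members were called higher, and the log2 fold change was 0.067 for Myh1, 0.47 for Mybpc1 and 0.46 for Tcap.

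Members with under 10 counts over the 6 libraries could not be tested, and those with few counts, such as Mylk2, are imprecise.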

Other observations

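Genes with at least 20 normalized counts on average, at least 4-fold more in control replicate 1 than in control replicate 3, and control replicate 2 between them, were listed after the values of the members had been seen. There were 53 such genes among 15211 with that mean. They included 21 of the 28 members with that mean, 4 of the further muscle genes, with Xirp2, Des and Cmya5 among them, and 6 genes that overlap a member, and the other 22 included Xist, Tsix, the granulocyte genes Mpo and Camp, and Car3, the carbonic anhydrase of slow muscle and fat. Car3 had 71.2, 40.9 and 16.8 normalized counts in controls and 65.4, 47.2 and 57.1 in Tlx3cko libraries. Mpo had 137, 56.8 and 17.5 normalized counts in controls and 4.81, 9.19 and 24.6 in Tlx3cko libraries. Mpo was thus lower in every Tlx3cko library than in control replicates 1 and 2, whereas Car3 lay between control replicates 1 and 2 in each Tlx3cko library.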
